A study of Mus musculus with 40 samples.

Results

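Neat1 and Malat1 are a pair of neighbouring long noncoding RNA genes whose transcripts stay in the nucleus. These 2 members were taken by symbol from a table of 23304 distinct mouse gene symbols, in which each of them had 1 row. They were chosen with earlier results of these libraries in view, among them the higher Neat1 level in DTR skin, so their own levels are described here without a p-value. RNA sequencing had been done on 40 libraries in 10 groups of 4.

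Whole ear skin and sorted mast cells came from MrgprdDTR mice (called DTR below) and from MrgprdCre mice (called Cre). Cre mice carry Mrgprdtm1.1(cre)And/Mmnc on B6.129S1(Cg), and DTR mice come from crossing these with the strain that carries Gt(ROSA)26Sortm1(HBEGF)Awai/J on C57BL/6. MrgprD is a receptor of a class of skin nociceptors, and in DTR mice Cre made from the Mrgprd locus turns on the diphtheria toxin receptor in the Rosa26 locus, so that toxin removes those neurons. DTR mice were labelled as given diphtheria toxin by intraperitoneal injection with acetone and olive oil (4:1). The design text describes Cre mice as toxin-treated too, for 3 to 4 weeks, whereas their treatment labels list acetone and olive oil (4:1) alone, so it is not settled whether Cre mice received toxin. Wild-type C57BL/6J ear skin had been treated daily for 2 days with 50 mM β-alanine (β-ala), an agonist of MrgprD, or with PBS. Peritoneal-derived mast cells of C57BL/6J mice were cultured for 6 h with 4 mM glutamate or with vehicle, both in glutamate-free Tyrode's buffer, and for 48 h with 50 uM NS102, a glutamate receptor antagonist, or with vehicle. The skin samples carry the label Epidermal, although muscle and fat markers were detected in every skin group. Nothing in the labels says which libraries came from separate animals or cultures, so the errors measure the spread between libraries, which may be technical.

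Neat1 is the architectural RNA of paraspeckles, nuclear bodies that assemble on its long form together with the proteins Sfpq, Nono and others. It has a short polyadenylated form and a long form that share their start. Its transcription is known to answer to p53, hypoxia and heat shock factors. Malat1 is enriched at nuclear speckles, the bodies that store splicing factors, and is known as one of the most abundant noncoding RNAs of many mammalian cells. The long form of Neat1 and Malat1 both end in a triple helix in place of a poly(A) tail, formed after RNase P removes a tRNA-like RNA from the 3′ side.

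The Neat1 row of the table lies on build mm9 at chr19:5842301-5845478 and spans 3177 bases, and the Malat1 row lies at chr19:5795689-5802671 and spans 6982 bases. The rows are 39630 bases apart. In the GENCODE M21 annotation of another build (GRCm38) the long Neat1 transcript, Neat1-201, has 20771 nt, the short one, Neat1-202, has 3004 nt, and Malat1-201 has 6983 nt. The span of the Neat1 row is thus close in size to the short transcript, which starts at base 3 of the long one. A row of this span cannot hold the whole long transcript. The Neat1 values below therefore do not tell the short form from the long form on which paraspeckles assemble. To show what the genes have in common, the last 126 bases of Neat1-201 and bases 6595 to 6720 of Malat1-201 are printed with the runs of at least 10 bases present in both in capitals.
Neat1-201: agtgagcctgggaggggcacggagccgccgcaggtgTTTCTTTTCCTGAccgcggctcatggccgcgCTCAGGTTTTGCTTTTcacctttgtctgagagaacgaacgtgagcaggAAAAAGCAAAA
Malat1-201: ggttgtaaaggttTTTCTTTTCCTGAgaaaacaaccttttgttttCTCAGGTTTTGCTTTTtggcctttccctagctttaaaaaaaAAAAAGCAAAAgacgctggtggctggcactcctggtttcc
The 3 shared runs have 13, 16 and 11 bases and stand in the same order in both RNAs. They lie in the U-rich motifs and the A-rich tract known to form the triple helix. The end of the short Neat1 form is shown because it carries the poly(A) signal, in capitals, followed by 14 bases.
Neat1-202: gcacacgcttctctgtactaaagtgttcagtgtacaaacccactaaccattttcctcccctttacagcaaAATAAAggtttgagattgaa

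The table holds FPKM, fragments scaled by transcript length and by the mapped fragments of the library, so values of Neat1 and Malat1 are both per length. Whether RNA was selected by poly(A) tail is not given in the sources used here. Malat1 and the long Neat1 form lack such a tail, so both RNAs may have been captured unequally. Counts were not used here. Low FPKM values fall on steps worth 1 fragment, and the steps put the depth at an estimated 20300000 to 68100000 fragments a library, where 47.2% to 68.6% of low values lay within 0.06 (log2) of a step against 8.0% to 14.2% at other depths. By that estimate Neat1 rested on 201 to 69724 fragments a library and Malat1 on 4853 to 120023. All 11 mast cell markers were detected in the sorted and cultured groups, with summed levels of 9895 to 29870 FPKM in sorted cells and 65890 to 94670 FPKM in cultured cells, against 5.08 to 262 FPKM in skin. The 8 keratinocyte markers summed to 12890 to 15530 FPKM in skin and to at most 9.12 FPKM in any sorted or cultured library. Library-to-library Pearson correlations within a group were 0.993 or higher in skin and cultured groups, and went down to 0.982 in sorted DTR cells and 0.9395 in sorted Cre cells.

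Neat1 levels spanned a far wider range over the 10 groups than Malat1 levels did. Mean Neat1 was highest in DTR skin, at 529.6 ± 29.1 FPKM (SD, n = 4 in every group), followed by Cre skin at 273 ± 60.4, PBS skin at 262 ± 21.9, sorted Cre cells at 206 ± 67.4, sorted DTR cells at 195 ± 51.9 and β-ala skin at 147 ± 14.2 FPKM. Cultured mast cells were lower, with 35.2 ± 32.5 FPKM under NS102, 8.22 ± 0.575 under glutamate, 2.98 ± 0.539 in 6 h vehicle and 1.69 ± 0.184 in 48 h vehicle. In this order, the libraries of neighbouring groups did not overlap between DTR skin and Cre skin, between β-ala skin and NS102 cells, between glutamate and 6 h vehicle cells, and between 6 h and 48 h vehicle cells. Every other neighbouring pair overlapped. Among all rows of a library Neat1 ranked between the 74th in a sorted DTR library and the 7227th in a 48 h vehicle library. The order of the groups holds for FPKM as deposited, without scaling to library totals. All FPKM of a library summed to 117402 to 191420 in sorted DTR cells and 427069 to 439620 in DTR skin. Neat1 was at places 74 to 87 in sorted DTR libraries and 115 to 128 in DTR skin.

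Malat1 had another order. It was highest in sorted Cre cells, at 453 ± 93.9 FPKM, and in sorted DTR cells, at 327 ± 54.1 FPKM. DTR skin followed at 50.9 ± 2.85 and Cre skin at 39.01 ± 3.16 FPKM, with no overlap between these and their neighbours. The remaining 6 groups lay between 18.5 ± 1.47 FPKM in 6 h vehicle cells and 26.0 ± 6.64 FPKM in NS102 cells, and each overlapped the next. Sorted Cre mast cells had 11.6-fold more Malat1 than Cre skin (a log2 difference of 3.49 with SE 0.160), while their Neat1 was 0.753-fold that of Cre skin and overlapped it. These folds hold for FPKM as deposited, which summed to 161634 to 196195 in sorted Cre libraries and 441930 to 468404 in Cre skin. By rank among all rows, Neat1 was at places 102 to 187 in sorted Cre libraries and 172 to 293 in Cre skin. Cultured and sorted mast cells thus stood apart for both RNAs: sorted Cre cells had 122-fold more Neat1 and 21.7-fold more Malat1 than 48 h vehicle cells. Sorted cells and the skin of the same strains also differed in Xist, with at most 0.0281 FPKM in any sorted library, against 32.6 to 37.1 FPKM in DTR skin and 24.5 to 31.2 FPKM in Cre skin, so cell type and what goes with Xist cannot be told apart between them.

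**Figure D1:**
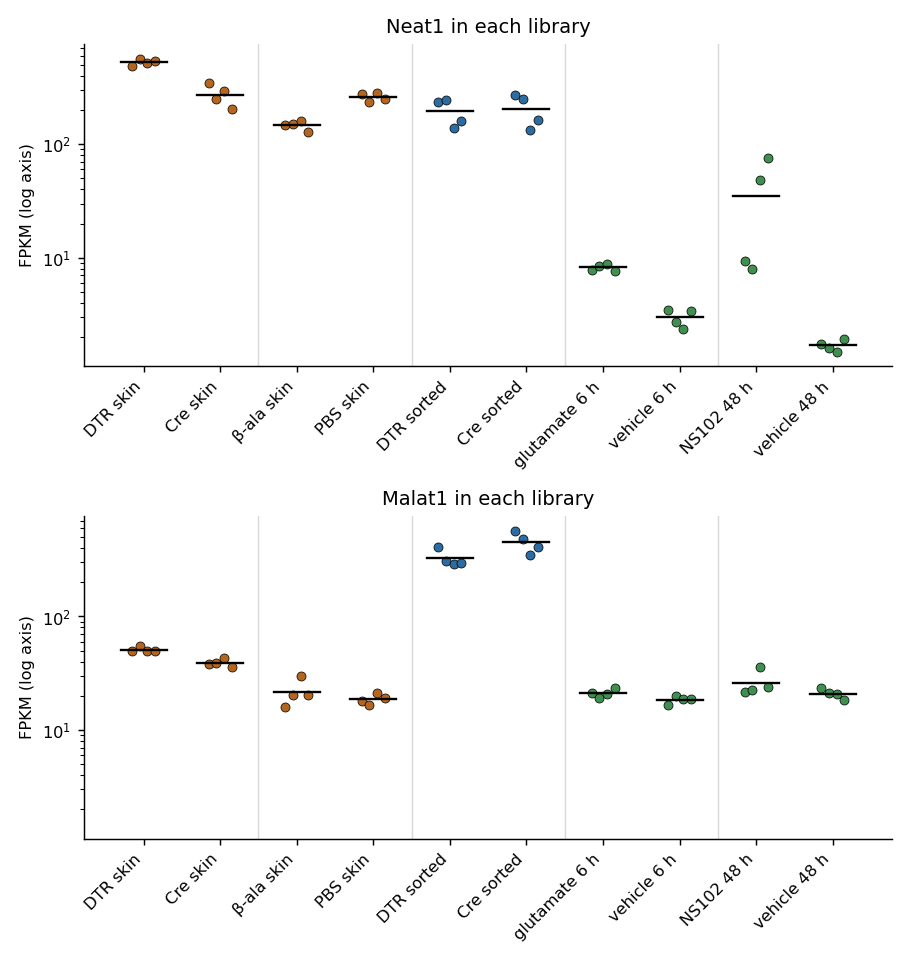
FPKM of Neat1 (top) and Malat1 (bottom) in each of the 40 libraries on a log axis, by group, with the group mean as a bar (n = 4). Values are as deposited, without scaling to library totals. Neat1 runs from 1.48 FPKM in a 48 h vehicle library to 562 FPKM in a DTR skin library, while Malat1 is above 290 FPKM in sorted cells and at or below 55.1 FPKM elsewhere.

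The question of the first comparison was what the loss of MrgprD neurons does to skin. Neat1 had 493, 562, 524 and 539 FPKM in the 4 DTR skin libraries, against 346, 248, 294 and 205 FPKM in Cre skin. All DTR libraries were above all Cre libraries, and the difference of means on the log2(FPKM + 1) scale was 0.98 (SE 0.17), a 1.94-fold higher mean. Malat1 had 49.5, 55.1, 49.7 and 49.2 FPKM in DTR skin, against 37.8, 38.8, 43.4 and 36.004 FPKM in Cre skin, which again did not overlap, with a log2 difference of 0.38 (SE 0.068). Of 12560 genes tested, 21.4% had groups that did not overlap in either direction, so the lack of overlap alone does not set the RNAs apart. By size, 17 of the 12560 genes, Neat1 included, had a log2 difference as high as that of Neat1, and 169 (1.35%) one as high as that of Malat1. Differences of all genes ranged from -0.27 at the 5th percentile to 0.25 at the 95th.

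Other cell content moved with the same contrast. The mast cell markers summed to 202 to 246 FPKM in DTR skin and 69.3 to 90.3 FPKM in Cre skin, and 9 of 9 tested rose. Skeletal muscle markers summed to 436 to 614 FPKM in DTR skin and 854 to 1941 FPKM in Cre skin, with 5 of 6 tested lower past the test, and fat cell markers to 228 to 273 and 486 to 598 FPKM, with 5 of 5 lower. Fewer cells of a type and less RNA per cell cannot be told apart in these whole tissues. The part of cell content in the Neat1 and Malat1 differences was not tested.

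Partners of both RNAs were read in the same limma fit, in which 13.8% of the 12560 genes passed an adjusted p of 0.05 (limma, Benjamini-Hochberg), 937 higher and 797 lower in DTR skin. The share of higher genes depends on scaling: centring on medians gave 724 higher and 1039 lower, and rescaling to TPM 1732 and 524. Of 22 paraspeckle proteins tested, 7 rose and 1 fell, with a median log2 change of 0.10 against 0.01 for all genes, and 2 rose and 1 fell once a trend on transcript length was removed. The splicing regulator Srsf10 rose to 28.8 ± 1.00 FPKM in DTR skin, against 23.8 ± 1.77 FPKM in Cre skin (log2 0.26, SE 0.053, limma adjusted p = 0.014). Nono, a core paraspeckle protein singled out after its values were seen, had 62.2 ± 1.27 FPKM in DTR skin and 56.8 ± 1.76 in Cre skin (log2 0.13, limma adjusted p = 0.046), and Sfpq, likewise singled out, did not pass (log2 0.13, limma adjusted p = 0.14).

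Of 16 nuclear speckle and splicing factors, 6 rose and 0 fell in DTR skin (median log2 0.14), and 2 rose and 0 fell with the length trend removed. They include the SR protein Srsf7, with 23.2 ± 0.385 FPKM against 19.97 ± 0.572 FPKM in Cre skin (log2 0.20, limma adjusted p = 0.0095). Of 10 transcription factors known to act on Neat1, 3 rose and 0 fell, and 2 rose and 1 fell with the length trend removed. Trp53, which encodes p53, rose to 27.4 ± 1.81 FPKM in DTR skin, against 21.8 ± 0.868 FPKM in Cre skin (log2 0.32, limma adjusted p = 0.0068), and the heat shock factor Hsf1 rose to 8.80 ± 0.648 FPKM, against 6.99 ± 0.354 FPKM in Cre skin (log2 0.29, limma adjusted p = 0.013). In the target lists, 0 of 12 p53 targets rose and 1 fell, 0 of 9 tested hypoxia targets rose and 2 fell, and 2 of 10 heat shock targets rose (0 with the length trend removed). The hypoxia target and mitophagy receptor Bnip3 fell to 29.4 ± 1.496 FPKM in DTR skin, against 43.7 ± 6.11 FPKM in Cre skin (log2 -0.55, limma adjusted p = 0.0044). Among RNA processing factors, 3 of 17 tested rose and 1 fell (6 and 0 after rescaling to TPM), with Mettl16, an RNA methyltransferase known to bind the Malat1 triple helix, at 7.89 ± 0.282 FPKM in DTR skin and 6.18 ± 0.475 in Cre skin (log2 0.31, limma adjusted p = 0.0089).

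Of 16 other long noncoding RNAs tested, 5 rose and 2 fell, and 2 rose and 2 fell of the 14 tested with the length trend removed. Xist, the RNA that silences an X chromosome, rose to 34.6 ± 1.84 FPKM in DTR skin, against 26.9 ± 3.11 FPKM in Cre skin (log2 0.35, limma adjusted p = 0.015), a call lost once a trend on transcript length was removed. The number of genes past the test depended on single libraries: it was 867 without DTR skin library 1, 783 without library 2, 1002 without library 3, 1153 without Cre skin library 2 and 956 without Cre skin library 4, against 1734 with all. The named genes of this comparison, other than Nono and Sfpq, which were not run, kept their calls without any 1 library.

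Treatment of wild-type skin with the MrgprD agonist went with a lower Neat1 level. Neat1 had 148, 151, 161 and 127 FPKM in β-ala skin, against 278, 237, 282 and 249.8 FPKM in PBS skin. Each β-ala library was below each PBS library, and the log2 difference was -0.83 (SE 0.094), a 0.560-fold mean. Such a lack of overlap was seen for 6.44% of 12663 genes tested, and 26 of them, Neat1 included, had a log2 difference as low. Malat1 had 16.1, 20.5, 29.8 and 20.5 FPKM in β-ala skin, against 18.1, 16.5, 21.2 and 19.2 FPKM in PBS skin. These groups overlapped, and the log2 difference of 0.17 had an SE of 0.19 and was 0.016 without β-ala library 3. The skin comparisons thus differed in direction for Neat1, with all DTR libraries above their Cre controls and all β-ala libraries below their PBS controls. This contrast between the experiments was not tested.

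Within each skin comparison the mast cell markers moved in the same direction as Neat1. They summed to 5.08 to 8.51 FPKM in β-ala skin and 213 to 262 FPKM in PBS skin, and 6 of 9 tested fell. Between the control skins they did not, with 69.3 to 90.3 FPKM of markers in Cre skin, below PBS skin, while Neat1 overlapped. Red blood cell markers summed to 95.7 to 176.4 FPKM in β-ala skin and 206.3 to 403.7 FPKM in PBS skin, without overlap, with a median log2 change of -0.97, and 0 of 4 passed the test. The part of either cell type in the Neat1 difference was not tested. Limma called 0.213% of genes in this comparison, 2 higher and 25 lower (6 and 25 with the length trend removed), and 1244 genes had an unadjusted p under 0.05. None of the 22 paraspeckle proteins, 16 speckle factors, 17 RNA processing factors, 13 other long noncoding RNAs or 10 transcription factors tested passed, nor any of the 28 neighbouring genes, although 1 paraspeckle protein fell with the length trend removed and 1 neighbour fell after median centring. The paraspeckle list had a median log2 change of -0.10, against -0.04 for all genes. Sfpq had 48.9 ± 2.49 FPKM in β-ala skin and 59.97 ± 4.71 in PBS skin (log2 -0.29, limma adjusted p = 0.23), and did not pass.

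The control skins of the experiments lay apart for Malat1 and overlapped for Neat1. Cre skin had 2.08-fold more Malat1 than PBS skin (39.01 ± 3.16 and 18.8 ± 1.97 FPKM), with no overlap, while Neat1 was 1.04-fold higher and overlapped. These skins differ in strain and treatment, and Xist ranged from 24.5 to 31.2 FPKM in Cre skin and from 0.00813 to 0.101 FPKM in PBS skin, so none of these can be told apart.

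In sorted mast cells, Neat1 had 234, 243, 139 and 161 FPKM in DTR libraries, against 273, 253, 134 and 164 FPKM in Cre libraries. The groups overlapped, with a log2 difference of -0.06 (SE 0.32), and within both groups libraries 1 and 2 were above libraries 3 and 4. These values are not scaled to library totals, which were 191420, 185120, 117402 and 125728 FPKM in DTR and 192477, 195961, 161634 and 196195 FPKM in Cre libraries. By rank among all rows, Neat1 was at places 87, 74, 82 and 78 in DTR libraries, without that split, and 102, 112, 174 and 187 in Cre libraries. Malat1 had 407, 310.3, 291 and 298 FPKM in DTR cells, against 569, 482, 349.8 and 413 FPKM in Cre cells. There, 3 of 4 DTR libraries were below every Cre library and library 1 was not, with a log2 difference of -0.46 (SE 0.19). Both signs turned under quantile normalization, to 0.63 for Neat1 and 0.40 for Malat1, and under rescaling to TPM Neat1 was at 0.24 and Malat1 at -0.16. In this comparison 33.5% of 8834 genes had groups that did not overlap. With libraries 1 and 2 alone the differences were -0.14 for Neat1 and -0.56 for Malat1, and with libraries 3 and 4 alone 0.02 and -0.37.

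Sorted groups also differed in what else they held. T cell and innate lymphoid markers summed to 4.80 to 8.80 FPKM in DTR cells and 247 to 389 FPKM in Cre cells, macrophage markers to 6.85 to 17.4 and 41.3 to 51.2 FPKM, and mast cell markers to 18220 to 29870 and 9895 to 14690 FPKM. The 14 ribosomal protein genes summed to 750 to 1294 FPKM in DTR cells and 2452 to 3912 FPKM in Cre cells. The part of these differences in the Malat1 values was not tested.

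Limma called 35.9% of genes in sorted cells, 1682 higher and 1486 lower, a split that became 3651 and 1441 after rescaling to TPM and 1046 and 1578 once the length trend was removed. Of 20 paraspeckle proteins tested, 4 rose and 0 fell (median log2 0.36, against 0.13 for all genes), which became 14 and 0 after rescaling to TPM and 2 and 2 with the length trend removed. Of 16 speckle factors, 0 rose and 3 fell, and 5 rose and 3 fell after rescaling to TPM. Srsf2, the marker protein of nuclear speckles, fell to 13.8 ± 3.99 FPKM in DTR cells, against 41.5 ± 4.598 FPKM in Cre cells (log2 -1.56, limma adjusted p = 2.9e-05). Of 9 transcription factors known to act on Neat1, 3 rose and 2 fell, and of 6 hypoxia targets tested 2 rose and 0 fell (1 and 1 with the length trend removed), a share near that of all genes. The hypoxia factor Hif1a rose to 19.6 ± 3.35 FPKM in DTR cells, against 8.04 ± 1.33 FPKM in Cre cells (log2 1.19, limma adjusted p = 0.00033), and its target Ndrg1 to 147 ± 37.1 FPKM, against 50.2 ± 6.87 FPKM in Cre cells (log2 1.503, limma adjusted p = 3.7e-05). Runx1, a transcription factor of blood cells, fell to 3.26 ± 0.756 FPKM in DTR cells, against 12.9 ± 1.58 FPKM in Cre cells (log2 -1.72, limma adjusted p = 6e-06). With libraries 1 and 2 alone 3342 genes rose, 9 paraspeckle proteins among them, and 1487 fell, and with libraries 3 and 4 alone 235 rose, with 0 paraspeckle proteins, and 1009 fell.

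Glutamate-treated cultured mast cells had more Neat1 than vehicle cells. Neat1 had 7.87, 8.53, 8.86 and 7.62 FPKM under glutamate, against 3.49, 2.69, 2.37 and 3.37 FPKM in 6 h vehicle. All glutamate libraries were higher, 2.76-fold by the means, with a log2 difference of 1.22 (SE 0.11). Malat1 had 21.3, 19.2, 20.8 and 23.5 FPKM under glutamate, against 16.5, 20.02, 18.7 and 18.6 FPKM in vehicle. Here 3 of 4 glutamate libraries were above every vehicle library and library 2 was not, with a log2 difference of 0.19 (SE 0.080). Lack of overlap was common in this comparison, at 74.3% of 8273 genes. Genes in general were lower, with a median of -0.33 on the log2 scale, from which Neat1 lay 1.55 and Malat1 0.52 higher. In size, 73 genes (0.882%), Neat1 included, had a log2 change as high as Neat1, and 15.5% one as high as Malat1. The ribosomal protein genes summed to 13810 to 14650 FPKM under glutamate and 10890 to 12210 FPKM in vehicle, and the mast cell markers to 92730 to 94670 FPKM under glutamate and 68380 to 71020 FPKM in vehicle. Their part in the Neat1 difference was not tested.

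Among partners, the count of higher and lower genes depended on scaling. Limma called 79.3% of genes, 1398 higher and 5164 lower, and this split was 3698 and 2593 after median centring, 3107 and 3088 after quantile normalization and 2898 and 2865 with the length trend removed. Of 19 paraspeckle proteins tested, 3 rose and 11 fell, a split that median centring turned to 9 and 6. Ewsr1, an RNA-binding protein, fell to 14.9 ± 0.793 FPKM under glutamate, against 38.9 ± 1.61 FPKM in vehicle (log2 -1.33, limma adjusted p = 9.2e-11), and Rbm14, which paraspeckles need to form, rose to 21.8 ± 0.933 FPKM, against 12.1 ± 0.772 FPKM in vehicle (log2 0.80, limma adjusted p = 1.8e-08). Of 14 speckle factors, 5 rose and 7 fell (7 and 6 after median centring), with Srsf3 at 14.99 ± 0.304 FPKM under glutamate and 31.04 ± 1.14 in vehicle (log2 -1.003, limma adjusted p = 3.3e-10). Of 9 transcription factors known to act on Neat1, 0 rose and 8 fell as deposited, and 2 rose and 3 fell after median centring. Rela, a subunit of NF-κB, fell to 15.3 ± 1.77 FPKM under glutamate, against 27.4 ± 1.48 FPKM in vehicle (log2 -0.81, limma adjusted p = 3e-07). The p53 target Cdkn1a, an inhibitor of the cell cycle, rose to 105 ± 3.40 FPKM, against 67.9 ± 1.73 FPKM in vehicle (log2 0.62, limma adjusted p = 3.9e-09), within a list of 10 of which 4 rose and 4 fell (6 and 1 after median centring).

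Neat1 was higher under NS102 and varied most there relative to its mean, with a coefficient of variation of 92.4% against 5.49% to 32.8% in the other groups. NS102 libraries had 9.43, 7.97, 48.1 and 75.2 FPKM, against 1.75, 1.60, 1.48 and 1.91 FPKM in 48 h vehicle. All NS102 libraries were above all vehicle libraries, and libraries 3 and 4 stood apart from libraries 1 and 2. The log2 difference was 3.18 (SE 0.78) with all libraries and 1.85 with NS102 libraries 1 and 2 alone. Of 8349 genes tested, 5 had a log2 difference as high as Neat1 with all libraries, Neat1 included, and 64.4% had groups that did not overlap. Malat1 had 21.7, 22.5, 35.8 and 23.98 FPKM under NS102, against 23.3, 21.2, 20.5 and 18.4 FPKM in vehicle, groups that overlapped, with a log2 difference of 0.28 (SE 0.18) and of 0.08 with libraries 1 and 2 alone. The ribosomal protein genes summed to 4065 to 5301 FPKM under NS102 and 10840 to 12250 FPKM in vehicle. The mast cell markers summed to 70480 to 82840 FPKM under NS102 and 65890 to 68560 FPKM in vehicle, again without overlap, and 8 of 11 rose and 2 fell. The part of these genes in the Neat1 difference was not tested.

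Limma called 70.5% of genes under NS102, 2574 higher and 3312 lower, and 3083 and 2462 after rescaling to TPM. Of 20 paraspeckle proteins, 7 rose and 6 fell, which became 11 and 4 after rescaling to TPM and 7 and 9 with the length trend removed. Smarca4, a chromatin remodelling ATPase, rose to 4.28 ± 1.67 FPKM under NS102, against 0.515 ± 0.0947 FPKM in vehicle (log2 1.75, limma adjusted p = 3.6e-06), and like Neat1 it was higher in libraries 3 and 4 (5.82 and 5.63 FPKM) than in libraries 1 and 2 (2.80 and 2.87 FPKM). The cold-shock protein Cirbp fell to 44.98 ± 2.14 FPKM, against 66.4 ± 1.47 FPKM in vehicle (log2 -0.55, limma adjusted p = 1.3e-06). Of 15 speckle factors, 8 rose and 4 fell. The first 3 by limma adjusted p were Srrm1, which rose (log2 1.12), and Srsf7 and Srsf3, which fell (log2 -0.79 and -0.67). Son, a scaffold protein of nuclear speckles, is named because its levels were the most like those of Neat1 over these same libraries. Its rise alongside Neat1 is thus not independent of that choice. Son had 6.05, 5.90, 7.91 and 8.28 FPKM under NS102. Its mean rose to 7.04 ± 1.24 FPKM, against 2.69 ± 0.432 FPKM in vehicle (log2 1.12, limma adjusted p = 3.8e-06). Of 9 transcription factors known to act on Neat1, 5 rose and 1 fell, with Rela higher under NS102 (22.98 ± 1.40 and 14.7 ± 1.52 FPKM, log2 0.61, limma adjusted p = 1.3e-05) and Nfkb1, another NF-κB subunit, lower (12.96 ± 0.953 and 19.1 ± 1.03 FPKM, log2 -0.53, limma adjusted p = 1.6e-05).

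The vehicle cells at 48 h and at 6 h differed in medium as well as in time. Neat1 was lower at 48 h in every library, 1.69 ± 0.184 FPKM against 2.98 ± 0.539 FPKM at 6 h, with a log2 difference of -0.56 (SE 0.11). Malat1 overlapped, at 20.9 ± 2.04 FPKM at 48 h and 18.5 ± 1.47 FPKM at 6 h (log2 0.17, SE 0.087). Groups did not overlap for 64.5% of 8442 genes, and 16.6% had a log2 change as low as Neat1. Limma called 72.0% of genes, 2891 higher and 3185 lower at 48 h. Of 9 transcription factors known to act on Neat1, 0 rose and 6 fell at 48 h, with Trp53 at 16.1 ± 0.710 FPKM against 33.8 ± 1.24 FPKM at 6 h (log2 -1.03, limma adjusted p = 3.6e-10), whereas 8 of 10 p53 targets rose and 2 fell, with Bax, which promotes cell death, at 132 ± 3.31 FPKM against 63.8 ± 3.36 FPKM at 6 h (log2 1.04, limma adjusted p = 8.8e-11). Because the 48 h and 6 h vehicles are also the controls of NS102 and glutamate, these comparisons are not independent of each other.

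**Figure D2:**
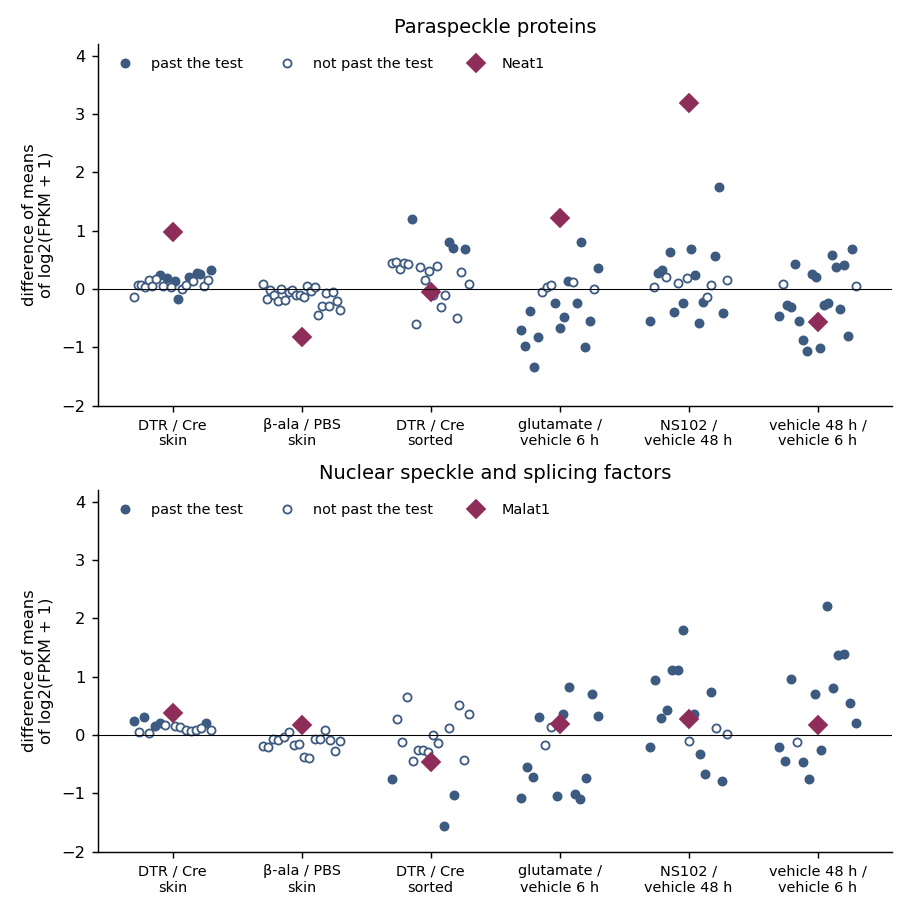
Differences of means of log2(FPKM + 1) for the tested paraspeckle proteins with Neat1 (top) and nuclear speckle factors with Malat1 (bottom) in the 6 comparisons. Filled points passed the limma test and open points did not. Neat1 lies above all paraspeckle proteins in DTR skin, glutamate and NS102 cells and below all of them in β-ala skin.

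The genes beside Neat1 and Malat1 were read in the same fits. The table has 32 other genes within 250 kb. Frmd8, a membrane-linked scaffold gene, lies 5.495 kb above Neat1. In DTR skin Frmd8 had 8.99 ± 0.617 FPKM, against 8.97 ± 0.318 FPKM in Cre skin (limma adjusted p = 0.99), while Neat1 was 1.94-fold higher there. Under glutamate, where Neat1 was 2.76-fold higher, Frmd8 fell to 6.85 ± 0.420 FPKM, against 25.8 ± 0.603 FPKM in vehicle (log2 -1.77, limma adjusted p = 1.2e-11). Under NS102 Frmd8 had 16.45 ± 0.474 FPKM and 15.4 ± 0.772 FPKM in vehicle (limma adjusted p = 0.17). Between vehicles Frmd8 fell along with Neat1, to 15.4 ± 0.772 FPKM at 48 h, against 25.8 ± 0.603 FPKM at 6 h (log2 -0.71, limma adjusted p = 2.1e-08). In sorted cells it had 6.92 ± 1.90 FPKM in DTR and 10.6 ± 3.80 FPKM in Cre libraries (log2 -0.53, limma adjusted p = 0.12), and in β-ala skin 6.81 ± 1.27 FPKM, against 7.21 ± 0.408 FPKM in PBS skin (limma adjusted p = 0.83).

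The counts over all neighbours are given with the share of all genes called in the same fit. In DTR skin 2 of 28 tested rose and 1 fell (4 and 0 after rescaling to TPM), where 13.8% of all genes were called. In sorted cells, with 35.9% of all genes called, 3 of 22 rose and 2 fell, a balance that turned to 3 and 6 after quantile normalization and to 1 and 5 with the length trend removed. Under glutamate, with 79.3% called, 2 of 25 rose and 21 fell (5 and 13 after median centring). Under NS102, with 70.5% called, 9 of 25 rose and 7 fell (12 and 4 after quantile normalization). Between vehicles, with 72.0% called, 4 of 26 rose and 17 fell at 48 h.

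**Figure D3:**
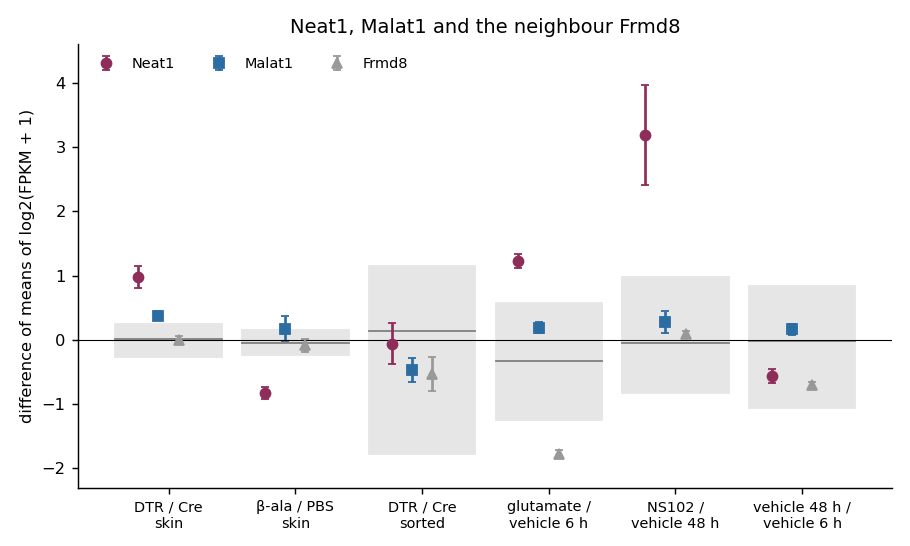
Difference of means of log2(FPKM + 1), with its SE, for Neat1, Malat1 and the neighbour Frmd8 in the 6 comparisons. Grey boxes run from the 5th to the 95th percentile of all genes tested and grey lines mark their median. Neat1 lies outside the box in 4 comparisons, and Malat1 in DTR skin and β-ala skin, where its difference was 0.016, inside the box, without β-ala library 3.

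The ratio of Neat1 to Malat1 inside a library, which does not change when a library is multiplied by a constant, set skin apart from sorted and cultured cells, which overlapped each other. It was highest in PBS skin, at 14.01 ± 1.07, followed by DTR skin at 10.4 ± 0.431, β-ala skin at 7.05 ± 1.66 and Cre skin at 6.998 ± 1.497. Sorted DTR cells had 0.595 ± 0.132 and sorted Cre cells 0.446 ± 0.0678. Cultured cells had 0.391 ± 0.0551 under glutamate, 0.163 ± 0.0403 in 6 h vehicle, 1.32 ± 1.29 under NS102 and 0.0817 ± 0.0148 in 48 h vehicle. Sorted and cultured cells overlapped through the glutamate and NS102 libraries alone. Every vehicle library, at most 0.212, lay below every sorted library, at least 0.382. The ratio did not overlap between DTR and Cre skin, β-ala and PBS skin, glutamate and vehicle, or NS102 and vehicle. Nor did it overlap between the vehicles, where it was lower at 48 h than at 6 h without any treatment. How often ratios of other gene pairs lack overlap was not computed. In sorted cells the ratio of Neat1 to Malat1 overlapped, with 3 of 4 DTR libraries above every Cre library. The NS102 libraries had ratios of 0.436, 0.355, 1.34 and 3.14, so that Neat1 FPKM exceeded Malat1 FPKM in libraries 3 and 4 and not in libraries 1 and 2. Since poly(A) selection is not known, a ratio above or below 1 does not tell which RNA was more abundant in the cells.

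**Figure D4:**
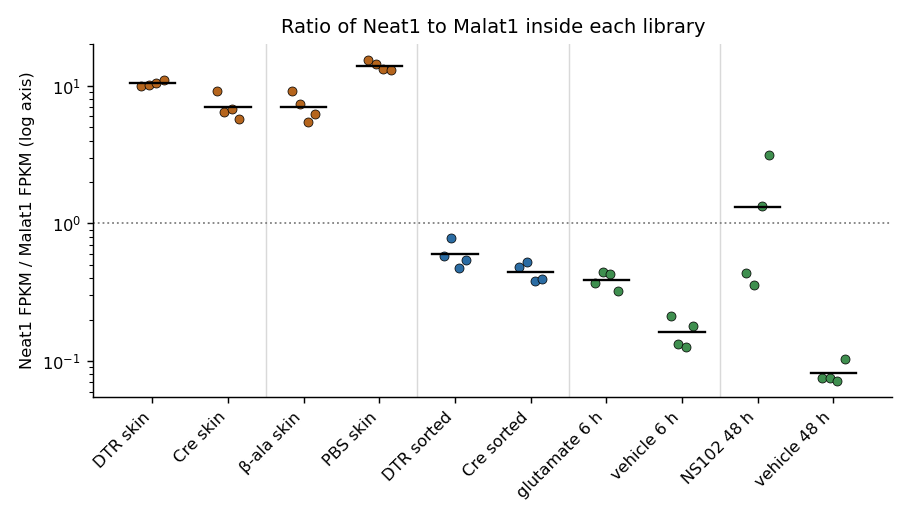
Neat1 FPKM divided by Malat1 FPKM in each library on a log axis, by group, with the mean as a bar (n = 4) and a dotted line at 1. All 16 skin libraries lie above 1, all 8 sorted libraries below it, and of the cultured libraries NS102 libraries 3 and 4 above it.

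The genes most like Neat1 were sought among 10044 genes with at least 5 FPKM in a group mean. Over the 40 libraries the highest Pearson r with log2 Neat1 were those of Son (0.97), Anks3 (0.97), Zc3h7a (0.97), Rassf1 (0.96) and Baz2b (0.96), and Malat1 stood at place 5207 with an r of 0.47. Baz2b reached a group mean of 5 FPKM in PBS skin alone. The libraries fall into skin, sorted and cultured cells, and within these the r differed. Within the 16 skin libraries r was 0.75 for Son and 0.82 for Zc3h7a, and below 0 for Anks3, Rassf1 and Baz2b, while for all 5 it was 0.61 to 0.92 within the 8 sorted and 0.71 to 0.97 within the 16 cultured libraries. For Malat1 it was 0.74 within skin, 0.65 within sorted and 0.65 within cultured libraries. Every r was taken without scaling to library totals, which differed among the sorted libraries. For deviations from group means the leading genes were Mrgpra4 (0.94), Tpr (0.92), Paxbp1 (0.90), Numa1 (0.89) and Cep250 (0.89). Of these, Cep250 reached a group mean of 5 FPKM in DTR skin alone, where Neat1 was highest, and Mrgpra4 in sorted and NS102 cells alone. Tpr, a protein of the nuclear pore, had 1.095, 1.11, 4.18 and 4.58 FPKM in the NS102 libraries, the same split as Neat1. Mrgpra4, a receptor gene of the Mrgpr family, had 31.2, 35.8, 25.8 and 22.8 FPKM in sorted DTR cells and 35.55, 33.1, 18.5 and 21.7 FPKM in sorted Cre cells. Without NS102 libraries 3 and 4 these r went down to 0.75 for Mrgpra4, 0.71 for Tpr, 0.62 for Paxbp1, 0.61 for Numa1 and 0.67 for Cep250.

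The genes most like Malat1 over the 40 libraries were Jun (0.97), Ier2 (0.96), Krt4 (0.94), Ptpre (0.93) and Fosb (0.93), of which Jun, Ier2 and Fosb are immediate early genes. Krt4, Ptpre and Fosb reached a group mean of 5 FPKM in sorted cells alone, where Malat1 was highest. The filter thus admitted them through the groups that set Malat1 apart, and their r over all libraries is no separate result. Jun averaged 297 FPKM in sorted DTR cells and 268 in sorted Cre cells, and between 14.8 and 31.04 FPKM in the other groups. Within the 8 sorted libraries r was 0.48 for Jun, 0.96 for Ier2, 0.89 for Ptpre, 0.49 for Fosb and -0.61 for Krt4. Within the 16 skin libraries it was 0.75 for Jun, 0.54 for Ier2, 0.75 for Ptpre, 0.46 for Fosb and 0.39 for Krt4, and within the 16 cultured libraries it went from -0.53 for Krt4 to 0.54 for Jun. For deviations from group means the leading genes were Rnf115, Ncoa6, Ash1l and Far1, with r between 0.70 and 0.72. Neat1 and Malat1 had an r of 0.44 in this measure, with 0.35 within skin, 0.85 within sorted and 0.43 within cultured libraries. These r were likewise taken without scaling to library totals.

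The promoter of Malat1 is shown as a description, and whether it shares sites with the genes most like Malat1 was not tested. It runs from 250 bases before to 50 bases after the transcript start in RefSeq (GRCm38.p6, chr19:5802623-5802922, minus strand), with TGACG cores and an overlapping ACGTG core in capitals.
Malat1 promoter: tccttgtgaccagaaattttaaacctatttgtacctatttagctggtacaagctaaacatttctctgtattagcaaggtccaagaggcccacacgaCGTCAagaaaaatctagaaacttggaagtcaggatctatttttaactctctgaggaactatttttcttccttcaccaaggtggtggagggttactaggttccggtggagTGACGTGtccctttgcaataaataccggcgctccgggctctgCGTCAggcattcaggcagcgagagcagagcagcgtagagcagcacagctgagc
TGACG, the core bound by CREB and ATF factors, was found 3 times over both strands, at -154, -45 and -3, and ACGTG, the hypoxia response core, once at -43, where it overlaps the TGACG core at -45. The letters TGACG are present at least once in 20.8% and ACGTG in 19.6% of 32851 promoters of the same length. How many promoters hold TGACG 3 times was not computed. The window holds no AP-1 site (TGANTCA, in 7.81% of promoters), no heat shock pair (GAANNTTC or TTCNNGAA, 15.1%), no TATAAA (13.6%), no CCAAT (37.4%) and no GGGCGG (35.7%). A match is a description and not a bound site. Of Neat1 no promoter is printed.

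Neat1 levels over all libraries, and Malat1 levels within skin, also moved with the share of long transcripts in a library, taken as the median log2(FPKM + 1) of 1248 genes over 6000 bases minus that of 2488 genes of 1000 to 2000 bases. Group means of this index were -0.90 in DTR skin and -1.02 in Cre skin, -1.18 in β-ala skin and -1.29 in PBS skin, -1.36 in sorted DTR and -1.48 in sorted Cre cells, -2.12 under glutamate and -2.28 in its vehicle, and -1.97 under NS102 and -2.54 in its vehicle. NS102 libraries 3 and 4 were at -1.84 and -1.87, and libraries 1 and 2 at -2.09 and -2.06. As a description, the Pearson r of the index was 0.96 with Neat1 over the 40 libraries, 0.68 over the 16 skin, 0.02 over the 8 sorted and 0.91 over the 16 cultured libraries. With Malat1 it was 0.34 over the 40 libraries, 0.96 over the skin, -0.21 over the sorted and 0.51 over the cultured libraries. In β-ala skin the index was higher than in PBS skin while Neat1 was lower. To remove the length trend, a curve on transcript length was fitted to the differences of group means of all genes. It was subtracted from the libraries of the tested group alone, which by construction brings the median gene close to no change. The log2 differences of Neat1 were then 0.95 in DTR skin, -0.77 in β-ala skin, -0.30 in sorted cells, 1.59 under glutamate and 3.16 under NS102. Those of Malat1 were 0.31 in DTR skin, 0.16 in β-ala skin, -0.59 in sorted cells, 0.51 under glutamate and 0.01 under NS102.

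**Figure D5:**
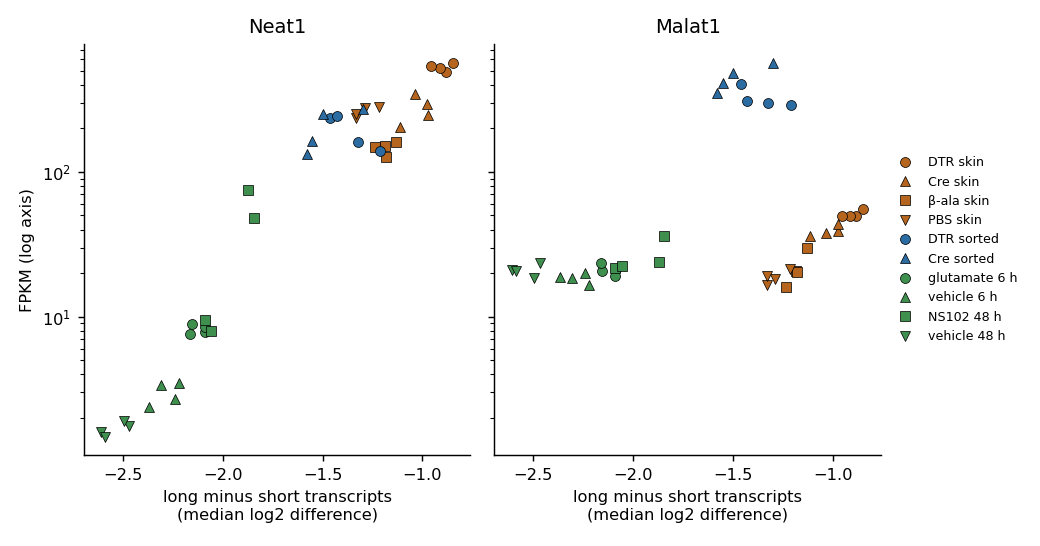
FPKM of Neat1 (left) and Malat1 (right) on a log axis against the median log2 difference between long and short transcripts, 1 point per library. Neat1 is high where long transcripts are relatively high, with β-ala skin lower than PBS skin at a higher index, and Malat1 follows the index within skin.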

How the data were processed

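The authors deposited a table of FPKM values for 40 libraries, made with STAR and Cufflinks on mm9 per the submitters' processing notes, without versions. Filters and annotation are not given in the sources used here. FPKM divides by transcript length and library total, so a few abundant transcripts can shift all other values.

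The log2(FPKM + 1) scale was used with no scaling between libraries, and it understates changes of low genes. Each comparison used its own 8 libraries. Genes with at least 1 FPKM in 4 libraries entered limma 3.58.1 (R 4.3.3), with two-sided tests and a variance trend. Benjamini-Hochberg adjustment ran over all genes tested, with a threshold of 0.05. The fit was tested on simulated data. Other steps used Python 3.11.15 (numpy 2.4.6, pandas 2.3.3, matplotlib 3.10.9). The members and gene lists were chosen with earlier results of these data known. Named genes are Neat1, Malat1, the nearest rows, per list and comparison up to 3 members past the test in order of adjusted p, and the 5 most alike genes, with exceptions stated. Some genes that this rule selects are not reported here. Sequences come from GENCODE M21 and RefSeq, and no coordinates were moved between builds.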

Additional observations from a re-analysis of the deposited data

Results flagged for a closer look

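In 15 of 249 groups of 4 libraries checked, 1 library stood apart from the other 3 by a gap above Dixon's 95% critical value, which chance gives in about 1 in 20 groups. Malat1 had 55.14 FPKM in DTR skin library 2, with the others between 49.21 and 49.67, 406.8 FPKM in sorted DTR library 1 (others 291.3 to 310.3) and 35.83 FPKM in NS102 library 3 (others 21.65 to 23.98). The ratio of Neat1 to Malat1 was 0.1037 in 48 h vehicle library 4 (others 0.07221 to 0.07558).

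The other libraries that stood apart concern partners. In skin, Hsf1 had 7.521 FPKM in Cre library 2 and Srsf7 20.83 FPKM in Cre library 1. In sorted Cre cells, Pabpn1 had 18.15 FPKM in library 4 (others 6.535 to 7.681) and Srsf2 34.67 FPKM in library 3. In 6 h cultures, 1700020I14Rik had 41.41 and Trp53inp1 3.506 FPKM in glutamate library 4, Rpp25 1.833 FPKM in vehicle library 3 and Srsf7 13.68 FPKM in vehicle library 4. In 48 h vehicle, 2900097C17Rik had 20.59 and Arnt 3.767 FPKM in library 1, and Exosc3 32.81 FPKM in library 4.

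For 3 partners every DTR library lay on one side of every Cre library in skin and on the opposite side in sorted cells, a difference that was not tested. Skin and sorted libraries also differed in Xist. The log2 differences were 0.25 in skin and -0.752 in sorted cells for Acin1, -0.209 and 0.596 for Ccng1, and 0.186 and -1.72 for Runx1.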

How the results depend on the processing

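Leaving out 1 library at a time gave 783 to 1536 genes past the test in DTR skin, and in sorted cells log2 differences of -0.24 to 0.10 for Neat1, where the sign turned without DTR library 3 or 4 or Cre library 1 or 2. In DTR skin it gave -0.026 to 0.043 for Frmd8. A filter of 5 FPKM, which tests fewer genes, left 1894 genes past the test in sorted cells, 3947 under glutamate, 3745 under NS102 and 3881 between vehicles. In sorted cells, rescaling to TPM gave 5092 genes, libraries 1 and 2 alone 4829 and libraries 3 and 4 alone 1244. There Neat1 was at 0.63 under quantile normalization, 0.24 in TPM and 0.019 with libraries 3 and 4 alone, Malat1 at 0.40 under quantile normalization and -0.16 in TPM. Under glutamate, Neat1 was at 1.45 with a pseudocount of 0.1, 0.73 with 5, 1.63 after median centring, 1.60 after quantile normalization and 1.59 with the length trend removed, and Malat1 at 0.60 after median centring, 0.50 after quantile normalization, 0.032 in TPM and 0.51 with the length trend removed. Under NS102, Neat1 was at 1.85 with libraries 1 and 2 alone, and with the length trend removed Malat1 was at 0.010 and Frmd8 at -0.0872. Between vehicles, Neat1 was at -0.77 with a pseudocount of 0.1, -0.25 with 5 and -0.76 in TPM, and Malat1 at 0.36 with the length trend removed. In DTR skin Frmd8 was at -0.0226 after median centring, -0.0249 after quantile normalization and -0.0486 with the length trend removed. Beyond what fewer genes or libraries explain by construction, the cause was not tested.

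Replicate numbers did not pair the libraries (correlations of same-numbered deviations of -0.248 to 0.464). With the replicate block, 1510 genes passed in DTR skin, 20 in β-ala skin, 3266 in sorted cells, 6614 under glutamate, 5630 under NS102 and 6310 between vehicles. Summing rows of a repeated symbol gave no other value, since each member has 1 row. The lowest Neat1 level, in a vehicle library, rests on an estimated 201 fragments.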
